A study of Rattus norvegicus with 8 samples.

Results

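The genes described here are the cytosolic ribosomal protein genes, measured with arrays in the pituitary of Wistar rats in lactation, taken on postpartum day 7. Members were chosen by name: every probe whose gene name starts with Rpl, Rplp or Rps and a number, or is Rpsa, without the Rps6k kinases and without names ending in ps. This gave 87 of the 26269 gene names on the array, 53 with large subunit names and 34 with small subunit names, measured by 151 probes. The groups were control (4 samples) and TCDD (4 samples). TCDD is a dioxin that acts through the aryl hydrocarbon receptor. The labels read here state no dose, route or day of exposure and no age of the dams. The labels do not say whether each sample came from 1 animal, so p-values measure only the spread between these samples. Whole tissue was used, so fewer cells of a type and less RNA per cell cannot be told apart.

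Ribosomal proteins assemble with ribosomal RNA into the large (60S) and small (40S) subunits of the ribosome, which translates every messenger RNA in the cytosol. Endocrine cells that secrete peptide hormones in bulk, such as the prolactin cells of the lactating pituitary, depend on heavy translation. Ribosomal protein messages belong to the TOP class, whose 5′ end carries a run of pyrimidines through which mTOR and the RNA-binding protein LARP1 set their translation. Their genes have many near-identical processed copies in mammalian genomes, and a probe can take up transcripts of such copies. The design asks whether the messages of this class differed between control and TCDD-exposed dams.

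The pyrimidine run was looked for around the first listed RefSeq start site of each gene in GRCr8, because it is the sequence feature that these genes share. Other starts of a gene were not examined. In the 30 bases from 15 before to 15 after the start, on the transcript strand only, 42 of 62 matched ribosomal protein names (67.7%) held a run of 8 or more C or T letters. Among the starts of 27457 genes the share was 11.4%. The letters CTTTC, which can lie within such a run, were in the window of 43.5% of these ribosomal protein names and of 3.62% of all genes. In all, 67 of the 87 members had a start in the table. The windows of the genes whose brightest probe had an unadjusted limma p under 0.05 in the comparison below, all of them lower on TCDD arrays, and of a pair of paralogues are shown, each on its own strand, with a run of 8 or more in capitals.
Rps23, chr2:23814502-23814531, plus strand: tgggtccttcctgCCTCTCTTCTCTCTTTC
Rpl35, chr3:43165907-43165936, minus strand: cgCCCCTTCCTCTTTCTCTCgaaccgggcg
Rpl34, chr2:221962269-221962298, minus strand: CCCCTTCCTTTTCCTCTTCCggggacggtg
Rps9, chr1:74430423-74430452, minus strand: tccggcggccacgTTTCTCTTTgtcacggg
Rpl26, chr10:54109677-54109706, plus strand: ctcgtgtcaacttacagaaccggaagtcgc
Rpl24, chr11:58128391-58128420, minus strand: gaatttagggaggagattctctaccctata
Rpl22, chr5:168117946-168117975, plus strand: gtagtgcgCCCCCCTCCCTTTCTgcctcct
Rpl22l1, chr2:113683181-113683210, plus strand: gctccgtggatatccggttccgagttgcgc
Rps23, Rpl35, Rpl34 and Rps9 had a run across the start, and Rpl26 and Rpl24 had none of that length in this window. Rpl37 also met this p, but RefSeq now gives the accession of its probes the symbol Rpl37l1, so no window is shown for it. The probes in rn4 and the RefSeq start of Rpl37 in GRCr8 both lie on the plus strand of chromosome 2. Whether they belong to the same gene was not determined. Rpl22 held a run of 15 letters, and its paralogue Rpl22l1 had a longest run of 4. By each gene's brightest probe, the median log2 difference between TCDD and control arrays was -0.065 over 41 genes with the run, Rpl37 left out. Over the 20 without it the median was -0.050, and whether the sets differ was not tested. Starts were matched by name. The probes of some genes with the run, such as Rpl35a, Rpl38 and Rpl10a, lie on other chromosomes in rn4 than these starts in GRCr8.

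Signals were scaled to the 75th percentile of each array, so a value of 7 on the log2 scale lies 7 doublings above that percentile. A probe was kept if it was well above background on at least 4 of the 8 arrays. That held for 147 member probes of 84 genes, 92 for the large and 55 for the small subunit. Rpl3l, the form of heart and skeletal muscle, Rpl27-ps1, Rps19bp1 and 1 of the 4 probes of Rpl36a were well above background on 0 arrays. Rps19bp1 is a binding protein that the name rule takes in, not a ribosomal protein. Of the kept genes 77 had plain ribosomal protein names, 5 had names of paralogues or copies (Rpl10l, Rpl22l1, Rpl36al, Rpl7l1 and Rps4y2), and Rpl12-ps1 and Rps2-ps7 had pseudogene names. Most members were among the brightest features of the array: 138 of the 147 probes lay in the brightest 10%, and 0 were saturated.

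The 75th percentile ranged from 765 to 932 over the 8 arrays, and the share of spots well above background from 71.1% to 73.9%. Slide 1 held the 4 control arrays and slide 2 the 4 TCDD arrays, so a slide effect and a group effect cannot be told apart. Anterior pituitary hormone messages other than Fshb were bright in both groups. Prolactin (Prl) stood at 8.17 ± 0.05 on control and 8.17 ± 0.10 on TCDD arrays (SD, n = 4 each). Fshb was dimmer, at 1.5 ± 0.4 on control and 0.8 ± 0.4 on TCDD arrays. Its difference was -0.71 (SE 0.25; limma adjusted p = 0.40), with overlapping groups. Over the 7 hormone genes the median difference was -0.0046, with 5 below 0. All 6 of 6 erythrocyte markers were above 0 in difference, with a median of 0.65. Their median deviation from each gene's mean was -0.59 to 0.28 on control arrays and -0.05 to 0.63 on TCDD arrays. The part of blood content in the values below was not tested.

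The ribosomal protein messages differed little between the groups, and the small differences lay mostly on the lower side on TCDD arrays. By limma with Benjamini-Hochberg adjustment over all probes, 0 of 147 member probes passed an adjusted p of 0.05, where 0.0451% of all 19950 probes tested did. The smallest adjusted p among members was 0.34. The median log2 difference, TCDD minus control, was -0.056 for the large subunit and -0.058 for the small subunit, against 0.021 over all probes. At an unadjusted p under 0.05, 10 member probes (6.80%) were lower and 0 higher, where 2.83% of all probes were lower and 7.58% higher. In 11 member probes (7.48%) the 4 TCDD values all lay below the 4 control values, and in 0 they all lay above. Over all probes these shares were 1.82% and 5.06%. A difference below 0 was found in 125 of the 147 member probes (85.0%) and in 43.5% of all probes.

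The other probes of the same brightness gave a nearer comparison, since bright probes as a whole sat lower than dim ones. Among the 1857 other probes of the brightest 10%, 51.6% had a difference below 0 and the median was -0.0027. In the brightest 5%, 870 other probes had a median of -0.021, with 61% below 0. The 128 member probes there had a median of -0.060, with 89% below 0. Spread within groups was alike: the median within-group SD was 0.092 for members and 0.092 for the other probes of the brightest 10%, against 0.149 for all probes.

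**Figure D1:**
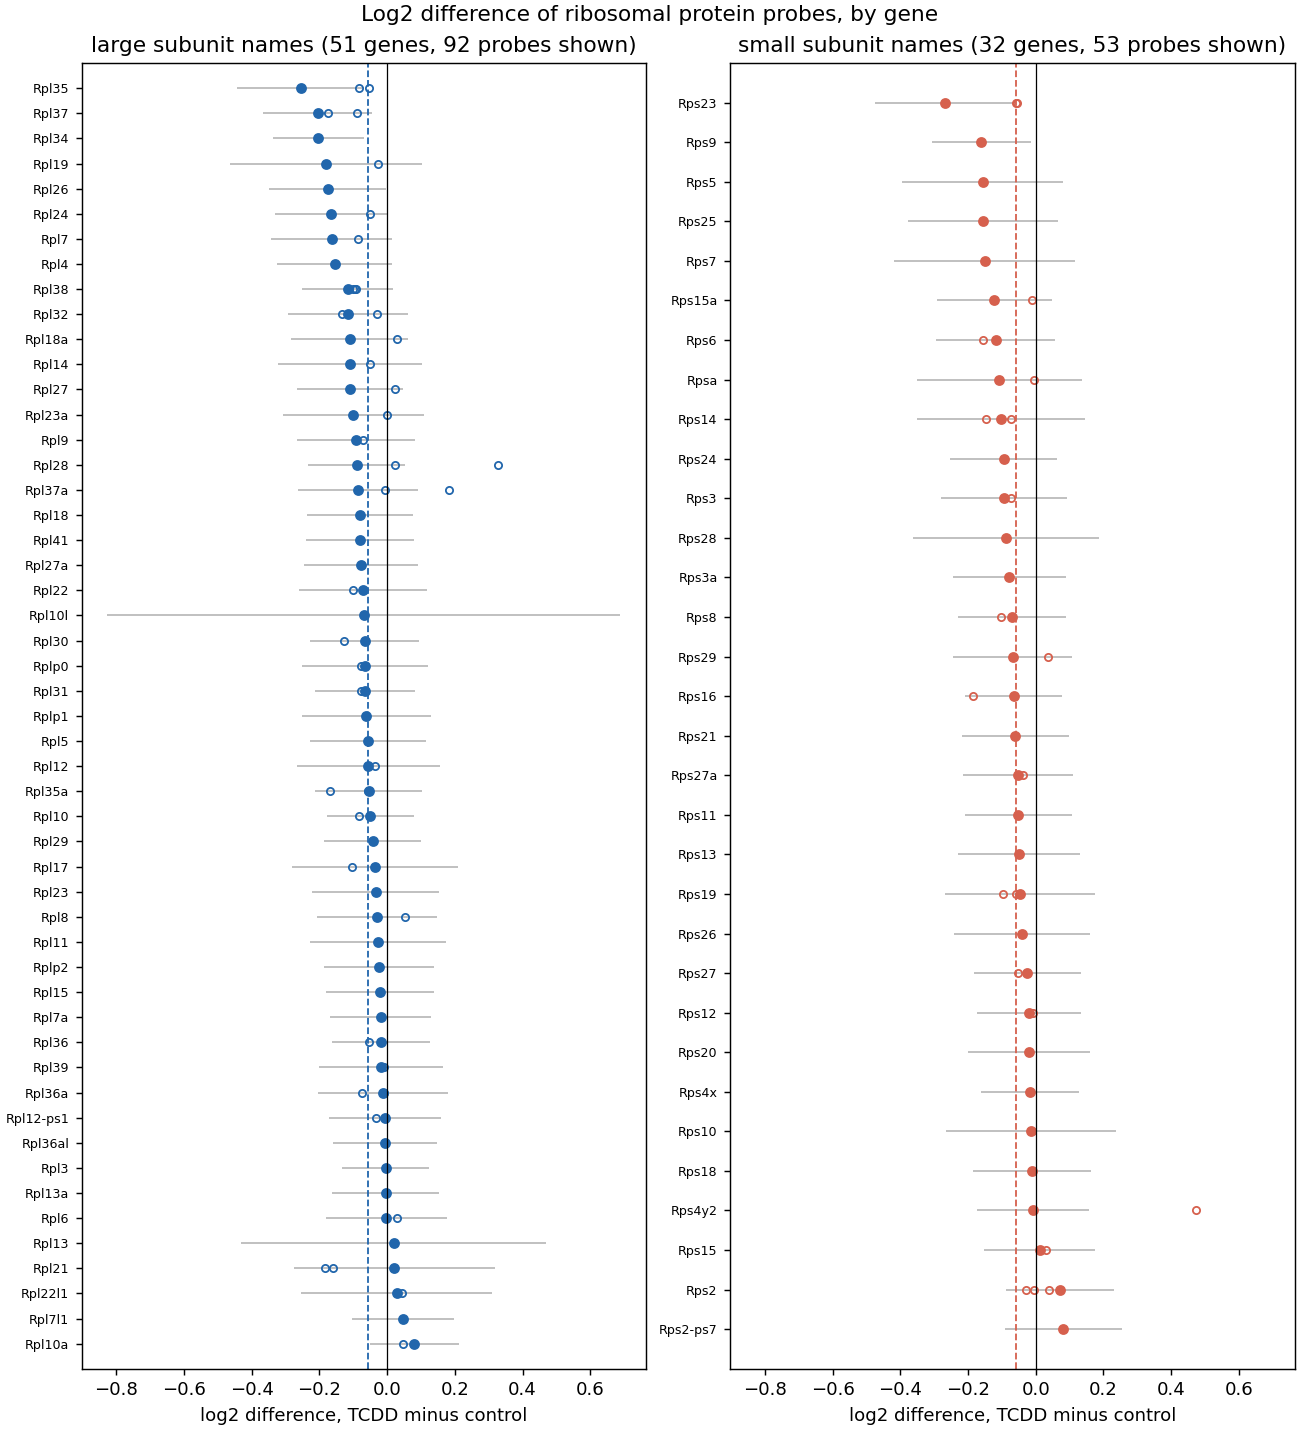
Log2 difference between TCDD and control arrays (x axis) for the genes with a kept probe apart from 1 that is not shown (y axis), large subunit names on the left and small subunit names on the right. Filled points are the brightest probe of a gene with its 95% confidence interval from the fit, open points its other probes, and dashed lines the median over all kept probes of the subunit. By their brightest probe, 76 of the 84 genes, the one not shown included, lie below 0 and 8 above, and few intervals leave 0 out.

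Part of the members' spread was shared within an array, and with this scaling the groups overlapped. Each probe was set against its own mean over the 8 arrays, and the median deviation was taken per array. For the large subunit it was -0.05, 0.05, 0.00 and 0.11 on control arrays 1 to 4, and 0.01, 0.07, -0.10 and -0.11 on TCDD arrays 1 to 4. For the small subunit it was -0.07, 0.04, -0.00 and 0.14 on control arrays, and -0.01, 0.07, -0.10 and -0.09 on TCDD arrays. Control 4 was the highest array and TCDD 3 and 4 the lowest in both subunits, while control 1 was below TCDD 1 and TCDD 2. The other probes of the brightest 10% were also high on control 4 and TCDD 2 (0.06 each) and low on control 1 and TCDD 4 (-0.05 each). Taking the array's median away left 66.6% of the members' variance within groups. The arrays with the lowest 75th percentile, TCDD 2 at 765 and control 4 at 805, had the highest member medians. Those with the highest percentile, control 1 at 932 and TCDD 4 at 897, were among the 3 lowest, and TCDD 3, at 822, was the remaining one. The log2 of this percentile is subtracted from each value, so the percentile and these medians are not independent. Quantile normalization gives all arrays the same distribution in place of this scaling. With it the median was -0.020 for the large and -0.019 for the small subunit, beside 0.0031 for all probes, and 63.0% and 61.8% of their probes lay below 0. The array medians of the large subunit were then 0.0047 to 0.025 on control arrays and -0.051 to 0.0014 on TCDD arrays, without overlap, and those of the small subunit, -0.016 to 0.034 and -0.034 to 0.0082, overlapped.

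**Figure D2:**
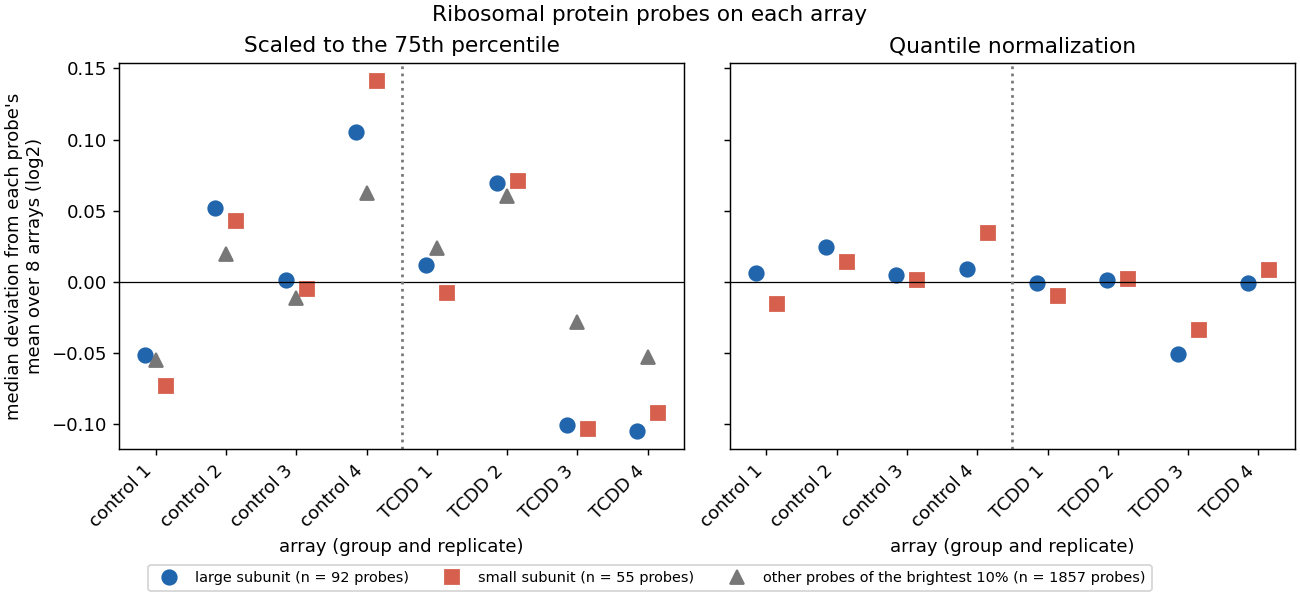
Median log2 deviation of the probes of each subunit from their own mean over 8 arrays (y axis), for each control and TCDD array (x axis), scaled to the 75th percentile on the left and after quantile normalization on the right. Triangles on the left are the 1857 other probes of the brightest 10%. The spread from -0.11 to 0.14 on the left narrows to between -0.05 and 0.03 on the right, and control and TCDD arrays overlap except for the large subunit on the right, where all 4 control arrays lie above the TCDD arrays.

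The size of these medians shifted with single arrays. Without control replicate 4 the median was -0.029 for the large and -0.018 for the small subunit. It was -0.037 and -0.033 without TCDD replicate 3, and -0.034 and -0.031 without TCDD replicate 4. Without TCDD replicate 2 it was -0.096 and -0.093, and without control replicate 1 the large subunit median was -0.087. In each of these fits 0 member probes passed the threshold.

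Rps23, a small subunit protein at the decoding centre, had the lowest difference of all member probes. Its brightest probe, which the files place on chromosome 2 from 21047736 to 21047795 in rn4, read 8.0, 8.13, 7.99 and 8.11 on control arrays and 7.91, 7.95, 7.70 and 7.60 on TCDD arrays. The groups did not overlap, though TCDD 1 and 2 came close to the controls and TCDD 3 and 4 were far lower. The difference was -0.27 (SE 0.09; limma adjusted p = 0.40), and the exact two-sided permutation p was 0.029, the smallest that 4 against 4 arrays can give. The other probes of Rps23 did not separate the groups, with differences of -0.06 (SE 0.07) and -0.06 (SE 0.08). These overlap each other on the transcript and differ at the letters in capitals, while their differences between groups were alike.
Rps23 probe at chr2:21047796-21047855 in rn4, plus strand: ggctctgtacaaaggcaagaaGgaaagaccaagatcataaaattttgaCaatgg
Rps23 probe at chr2:21047791-21047849 in rn4, plus strand: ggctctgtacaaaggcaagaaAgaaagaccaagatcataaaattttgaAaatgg
The brightest probe differed from each of these in its group difference by 0.21 (SE 0.06; exact permutation p = 0.029).

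Rps9, a small subunit protein that binds early in assembly, was measured by 1 probe. It read 6.63, 6.67, 6.61 and 6.74 on control arrays and 6.50, 6.58, 6.54 and 6.40 on TCDD arrays. The groups did not overlap, with TCDD 2 next to control 3, and the difference was -0.16 (SE 0.06; limma adjusted p = 0.45). With normexp background correction and quantile normalization together this difference was -0.092. Rps6, the small subunit protein that S6 kinase phosphorylates, gave -0.12 (SE 0.08) and -0.15 (SE 0.09), with overlapping groups in both. Rps19 and Rps14, genes known from Diamond-Blackfan anaemia and the 5q- syndrome, were measured by 3 probes each. All 6 differences were below 0, from -0.15 to -0.05, and each had overlapping groups.

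Rpl34, a large subunit protein, had the smallest p of all members. Its single probe read 6.74, 6.86, 6.86 and 6.86 on control arrays and 6.58, 6.70, 6.62 and 6.61 on TCDD arrays. Control 1 stood below the other controls and still above the highest TCDD value. The difference was -0.20 (SE 0.06; limma adjusted p = 0.34), and over all processing settings it lay between -0.24 and -0.16, with adjusted p from 0.24 to 0.56.

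Rpl35, which lines the opening of the exit tunnel for the growing peptide, followed the pattern of Rps23. Its brightest probe read 7.38, 7.49, 7.33 and 7.34 on control arrays and 7.23, 7.25, 7.08 and 6.97 on TCDD arrays. The groups did not overlap, and TCDD 4 was the lowest array. The difference was -0.26 (SE 0.08; limma adjusted p = 0.38), and the other probes of the gene gave -0.05 (SE 0.06) and -0.08 (SE 0.05) with overlapping groups. The brightest probe lies on chromosome 3 from 18787991 to 18788050 in rn4, and the others lie between 18790559 and 18790627. With quantile normalization the difference of the brightest probe was -0.17.

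Rpl26 and Rpl24 had differences of similar size. Rpl26, next to Rpl35 at the tunnel opening, read 7.20, 7.34, 7.27 and 7.39 on control arrays and 7.19, 7.24, 7.04 and 7.02 on TCDD arrays. Its groups overlapped, since TCDD 2 was above control 1, and the difference was -0.18 (SE 0.08). Rpl24, which forms a bridge to the small subunit, had a difference of -0.17 (SE 0.07) by its brightest probe and -0.05 (SE 0.06) by the other. Its brightest probe read 7.42 to 7.49 on control arrays and 7.18 to 7.41 on TCDD arrays, so the groups nearly touched. With quantile normalization the differences of Rpl26 and of this probe were both -0.11, and with normexp as well they were -0.084 and -0.048.

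Rpl35a, mutated in some families with Diamond-Blackfan anaemia, had probes that share a stretch but for a single letter and differed in their values. Its 3 probes overlap near the stop codon, on the minus strand of chromosome 12 between 6574161 and 6574259 in rn4. The RefSeq start of Rpl35a lies on chromosome 11 in GRCr8, and whether the rn4 place is the Rpl35a gene or a copy was not determined. The middle probe has another letter than its neighbours at the position in capitals.
Rpl35a probe at chr12:6574200-6574259, part shared with the middle probe: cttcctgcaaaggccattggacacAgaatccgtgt
Rpl35a middle probe at chr12:6574175-6574234: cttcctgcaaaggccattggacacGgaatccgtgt
The third probe, from 6574161 to 6574220, shares 46 bases with the middle one and has the letter of the first at that place. The middle probe read 6.80, 6.91, 6.80 and 6.94 on control arrays and 6.72, 6.74, 6.66 and 6.65 on TCDD arrays, with no overlap. Its difference was -0.17 (SE 0.06; limma adjusted p = 0.41), and those of its neighbours were -0.05 (SE 0.07) and -0.06 (SE 0.06) with overlapping groups. The middle probe's difference was lower than each neighbour's by 0.11 (SE 0.02; exact permutation p = 0.029), with no overlap of the probe-to-probe values between the groups.

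Rpl21 showed the same kind of disagreement. Its probes at 8716713 to 8716772 and 8717023 to 8717082 on chromosome 12 of rn4 gave -0.18 (SE 0.06) and -0.16 (SE 0.07), both with groups that did not overlap. The brightest probe, at 8716682 to 8716741, gave 0.02 (SE 0.13), with values of 7.72, 7.88, 7.37 and 7.93 on control arrays and 7.82, 7.86, 7.67 and 7.63 on TCDD arrays. Control 3 was the lowest array there, and the difference between this probe and its overlapping neighbour was 0.20 (SE 0.12; exact permutation p = 0.086). The 29 shared bases of these probes differ at the letters in capitals.
Rpl21 brightest probe: tgctggagcccatTccatacgAattcatg
Rpl21 neighbour: tgctggagcccatGccatacgGattcatg
Rpl37 had 3 probes with differences of -0.21 (SE 0.07), -0.18 (SE 0.09) and -0.09 (SE 0.09), of which the first did not overlap between groups. That probe read 5.12, 5.16, 5.08 and 5.24 on control arrays and 4.98, 5.06, 4.84 and 4.88 on TCDD arrays.

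**Figure D3:**
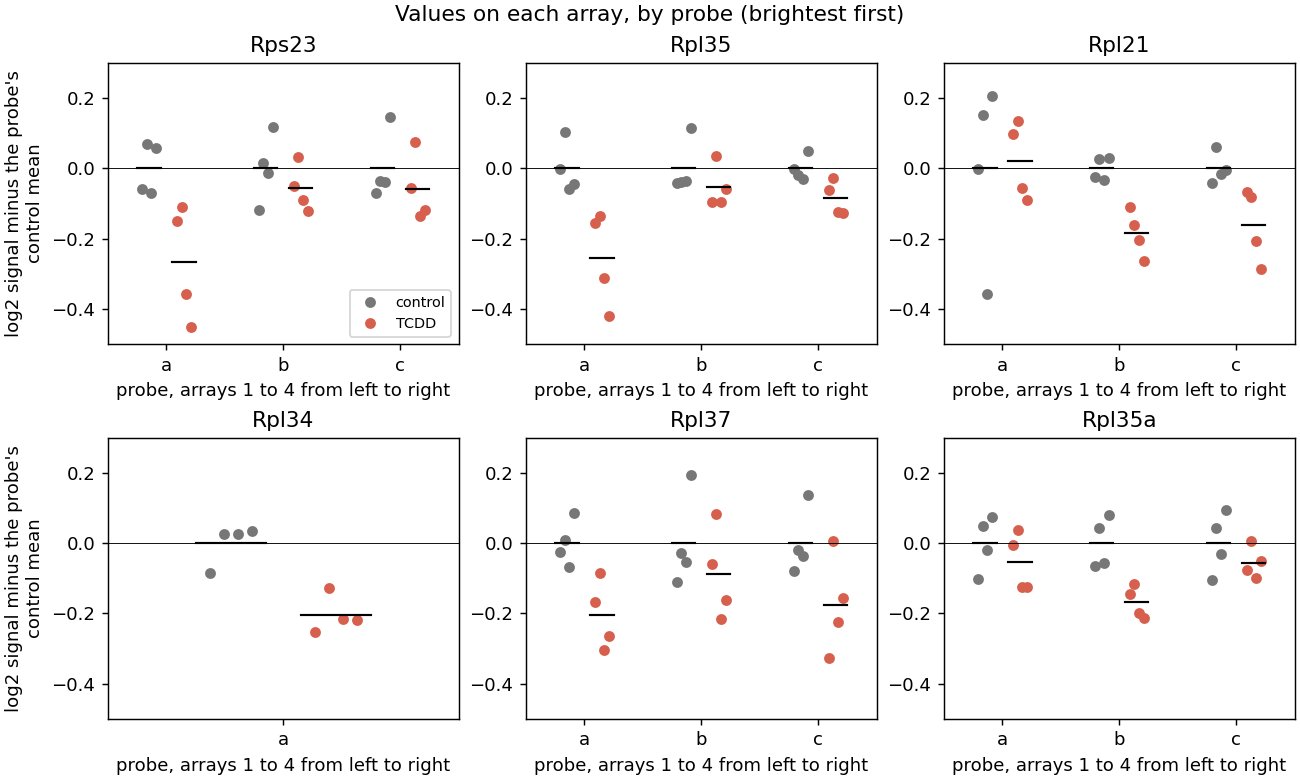
Log2 signal of every probe of 6 genes minus that probe's control mean (y axis), with the probes of a gene ordered from the brightest (a) along the x axis. Grey points are the 4 control arrays, red points the 4 TCDD arrays, in replicate order, and bars the group means. For Rps23 and Rpl35 the brightest probe separates the groups and the others do not, and for Rpl35a the second one does.

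Probes of the same gene were compared for their group difference in 80 pairs from 48 genes. The exact permutation p reached its smallest value of 0.029 in 12 pairs (15%). The share among same-gene probe pairs of the rest of the array was not computed. Pairs of Rps23 and of Rpl35a shared a probe, so the pairs are not independent. After Benjamini-Hochberg adjustment over the 80, 0 pairs passed, the smallest adjusted p being 0.19. Because p cannot fall below 0.029, a pair could pass only if many pairs reached it. The adjustment therefore cannot decide whether single pairs differ. The median size of the gap within a pair was 0.05, nearly that of the subunit medians themselves. In 34 of these 48 genes all probes lay below 0, in 3 all lay above, and in 11 they lay on both sides. Overlapping probes made up 18 pairs in 14 genes, and 15 of these pairs had differing bases in the shared stretch. Which gene copy each of these probes reads was not determined here.

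Members with several probes also agreed in places. The 4 probes of Rpl38, known from a mouse mutant with skeletal defects, gave differences between -0.12 and -0.09, the brightest of them without overlap. The 3 kept probes of Rpl36a gave differences between -0.07 and -0.01. The 3 probes of Rpl32 were alike in sign only, at -0.12, -0.13 and -0.03, the second of them without overlap. The second Rpl32 probe differed from the third in its group difference by -0.10 (SE 0.02; exact permutation p = 0.029). The 2 probes of Rplp0, the base of the stalk that binds elongation factors and a common reference gene in PCR, gave -0.07 (SE 0.08) and -0.08 (SE 0.07). Some of this agreement was built in, since several of these probes share bases. The Rplp0 probes share 41 bases and 2 Rpl38 probes share 54, with 0 differing. Among the Rpl36a probes 2 share 57 bases with 3 differing, and the first 2 Rpl32 probes share 55 with 4 differing. Rplp0, Rpl41, the smallest ribosomal protein, and Rps23 had the brightest member probes, which depends on the probe as well as the transcript. Rpl41 read 8.46, 8.53, 8.46 and 8.58 on control arrays and 8.45, 8.55, 8.41 and 8.30 on TCDD arrays, with a difference of -0.08 (SE 0.07). TCDD 4 was the lowest array there.

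By their brightest probe 8 genes lay above 0, and 0 of these had groups that did not overlap. Rpl10a, part of the stalk near the exit site for transfer RNA, gave 0.08 (SE 0.06) and 0.05 (SE 0.05). It read 5.53, 5.63, 5.51 and 5.56 on control arrays and 5.63, 5.66, 5.56 and 5.69 on TCDD arrays. Rps2, near the entry of the messenger RNA, had probes at 0.07, 0.04, -0.03 and -0.01, and the pseudogene name Rps2-ps7 had 0.08 (SE 0.07). With quantile normalization the brightest Rps2 probe stood at 0.15, and with median centring at 0.034. Rps15 gave 0.01 (SE 0.07), Rpl13 0.02 (SE 0.20), Rpl22l1 0.03 (SE 0.12) and Rpl7l1 0.05 (SE 0.07). The signs of Rps15, Rpl13, Rpl22l1 and the brightest Rpl21 probe turned with median centring.

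The highest differences of all came from dim probes of genes whose other probes were near 0. Rps4y2 had one at 0.47 (SE 0.39), which read -3.40, -1.93, -1.87 and -3.36 on control arrays and -2.19, -1.93, -1.98 and -2.57 on TCDD arrays. Controls 1 and 4 alone were low there, and the other probe gave -0.01 (SE 0.07). Without control 1 the first value was 0.22 and without control 4 it was 0.23. Rpl28 had a probe at 0.33 (SE 0.18), well above background on 7 arrays, and others at -0.09 (SE 0.06) and 0.02 (SE 0.07). Rpl37a had one at 0.18 (SE 0.16) on chromosome 9 of rn4, and its other probes, on chromosome 5, gave -0.09 (SE 0.08) and -0.01 (SE 0.06).

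Paralogues were set beside their parent genes, each with its own difference. Rpl22 gave -0.07 (SE 0.08) and -0.10 (SE 0.08), while Rpl22l1 gave 0.03 (SE 0.12) and 0.05 (SE 0.10). Rpl7 gave -0.16 (SE 0.08) and -0.09 (SE 0.08), and Rpl7l1, a nucleolar relative, 0.05 (SE 0.07). Rpl10 gave -0.05 (SE 0.06) and -0.08 (SE 0.07), and Rpl10l, a retrogene used in the testis, -0.07 (SE 0.33). Rpl10l was among the dimmest kept members, with control 4, at -1.39, the lowest array. Rpl36al gave -0.01 (SE 0.07) and Rps4x, measured on 10 spots, -0.02 (SE 0.06). Rpl15, with the lowest mean of all genes by its brightest probe and also on 10 spots, gave -0.02 (SE 0.07). As a set, the 10 probes with copy or pseudogene names had a median of 0.01, with 5 of 10 below 0. The 137 probes with plain names had a median of -0.06, with 120 below 0. The probes of Rpl10l, Rpl7l1 and Rps2-ps7 and the dimmer probes of Rpl22l1 and Rps4y2 lay outside the brightest 10%, and few plain-name probes did. Dim probes as a whole sat higher than bright ones. Whether these sets differ was not tested.

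Other genes of translation were read from lists, and 0 of their genes passed the adjusted threshold. Of the 20 elongation factors and other TOP messages 11 lay below 0, with a median of -0.02 and with 0 at an unadjusted p under 0.05. Fau, which encodes a small subunit protein fused to a ubiquitin-like domain, gave -0.12 (SE 0.06), near the lower members. Rack1, a scaffold on the small subunit, gave 0.02 (SE 0.07). Eef1d, an exchange factor for elongation factor 1, gave -0.13 (SE 0.06), Eef2k, the kinase that halts elongation, -0.20 (SE 0.10), and Vim, a cytoskeletal TOP message, 0.25 (SE 0.11).

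Of 42 initiation factors, 17 lay below 0 and the median was 0.02. Eif1b, a start site factor, gave 0.14 (SE 0.06), Eif4e, which binds the cap, 0.14 (SE 0.07), Eif1ax 0.21 (SE 0.10) and Eif4b, a helicase cofactor, -0.13 (SE 0.06). Of 81 ribosome biogenesis genes, 47 lay below 0, with a median of -0.02, and 1 was lower and 4 were higher at an unadjusted p under 0.05. The lower one was Fbl, the methyltransferase fibrillarin, at -0.23 (SE 0.07) with groups that did not overlap. Ddx52, an RNA helicase, gave 0.26 (SE 0.07), Senp3 0.20 (SE 0.07) and Nmd3, the export adaptor of the large subunit, 0.16 (SE 0.06). The groups did not overlap for Ddx52 and Nmd3 either. In this list 1 gene was lower and 2 were higher without overlap, where 1.82% of all probes were lower and 5.06% higher.

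Among 38 regulators in the mTOR, MYC and LARP list, 17 lay below 0 and the median was 0.01. Deptor, an inhibitor bound to mTOR, gave -0.41 (SE 0.10; limma adjusted p = 0.26), with no overlap of the groups. Rictor, the defining subunit of mTOR complex 2, gave -0.40 (SE 0.11), Rptor, that of complex 1, -0.21 (SE 0.08), and the GTPase Rraga 0.24 (SE 0.08). The groups did not overlap for Rictor and Rraga either. Rictor was dim, with a mean of -5.2 on control and -5.6 on TCDD arrays. In this list 3 genes were lower and 3 higher without overlap, where 1.82% of all probes were lower and 5.06% higher. Of 19 cytosolic aminoacyl-tRNA synthetases 12 lay below 0, with a median of -0.06. Farsb gave -0.15 (SE 0.06), Farsa, the other subunit of the same enzyme, -0.16 (SE 0.10), Vars -0.27 (SE 0.10) and Eprs -0.10 (SE 0.08). Vars was dim as well, with a mean of -4.3 on control and -4.5 on TCDD arrays.

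**Figure D4:**
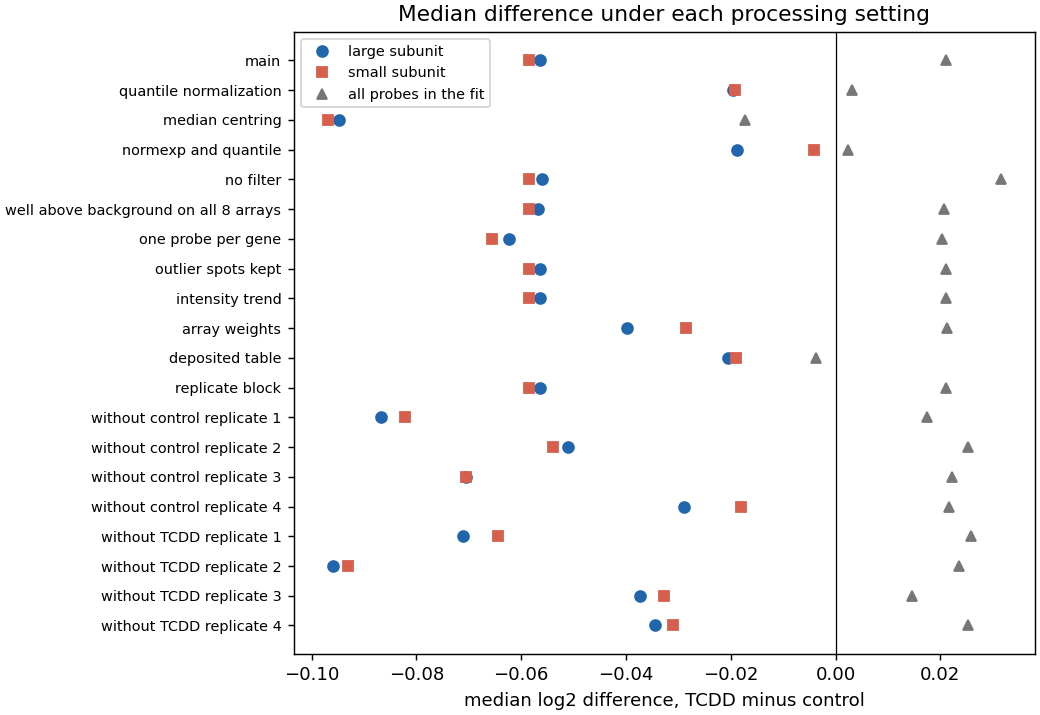
Median log2 difference, TCDD minus control (x axis), over the probes of the large subunit, the small subunit and all probes in the fit, under the main setting and 19 alternatives (y axis). Both subunit medians lie below 0 and below the median of all probes in each of the 20 settings, between -0.097 and -0.0040.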

How the data were processed

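RNA of 8 pituitary samples was labelled with Cy3 and run on single-colour Agilent rat arrays. Per the file headers, spots were read with Agilent Feature Extraction 10.7.1.1, and the deposited processed intensity is a linear, background-subtracted signal of each array, with probe positions in rn4. The authors also deposited a table of linear intensities with 1 shared distribution (median 56.3 in each column), used as an alternative.

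Processed signals were put on a log2 scale relative to the 75th percentile of the array's spots other than controls. Outlier spots were set to missing, spots of a probe averaged, and 19950 of 30367 probes kept. Each probe was fitted with limma 3.58.1 (lmFit, eBayes; R 4.3.3), two-sided, with Benjamini-Hochberg adjustment at 0.05. The fit was also run on simulated data with independent noise. That run held no effect shared by an array or slide, so it cannot show how the fit handles such effects. Single probes and probe pairs also had an exact permutation test over 70 assignments. Starts and current symbols came from RefSeq tables of GRCr8.

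Genes named are those with the 8 smallest p in each direction, with 3 or more probes or a gap over 0.3 between probes, paralogues, and the 3 brightest and 3 dimmest; other lists give up to 4 by p, with Rack1 and Fau. Some genes that this rule takes in are not reported here. Rps6 and the hormone Prl were added by choice. The members and lists were chosen with earlier results of these data known. A further 18 probes, under provisional names in the files, now carry ribosomal protein or copy names in RefSeq and are not analysed here.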

Additional observations from a re-analysis of the deposited data

Results flagged for a closer look

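In 8 of 134 groups of 4 arrays (5.97%), 1 array stood far from the other 3, measured as its gap to the nearest value over the range of the group; chance gives about 5%. Control 1 was the lowest control for Rpl34 (0.931 of the range), for the brightest probe of Rpl37a (0.852) and for the brightest probe of Rps14 (0.834). Control 4 was the highest control for 1 of the dimmer probes of Rpl35 (0.95), for the second probe of Rplp0 (0.849) and for the dimmest probe of Rps23 (0.846). TCDD 2 was the highest TCDD array for both overlapping probes of Rps2 (0.901 and 0.849). These are also the arrays on which the median of all ribosomal protein probes was the lowest of the controls, the highest of the controls and the highest of the TCDD arrays.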

How the results depend on the processing

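With the main setting and all 19 alternatives 0 member probes passed the adjusted threshold, with 4 to 17 lower and 0 to 3 higher at an unadjusted p under 0.05. Both subunit medians stayed below 0: from -0.096 to -0.019 for the large subunit (-0.096 to -0.029 with 1 array left out) and from -0.097 to -0.0040 for the small subunit (-0.093 to -0.018 with 1 array left out). The smallest sizes came with normexp and quantile normalization together, at -0.019 and -0.0040. The large subunit had 77 probes below 0, 58 with quantile normalization and 85 with median centring, and the small subunit 48, 34 and 51, so the sign of many probes changed. Among the single probes named in the text and refitted under each alternative, signs turned for 6. With median centring Rpl13 gave -0.020, the brightest Rpl21 probe -0.017, Rpl22l1 -0.011, the second Rpl28 probe -0.015 and Rps15 -0.027. With array weights Rpl13 gave -0.072 and the brighter Rps4y2 probe 0.024, and with normexp the second Rpl28 probe gave -0.036. With 1 array left out Rpl13 ranged from -0.098 to 0.14, the Rpl21 probe from -0.098 to 0.091, Rpl22l1 from -0.053 to 0.13, the Rpl28 probe from -0.012 to 0.063, Rps15 from -0.025 to 0.056 and the Rps4y2 probe from -0.049 to 0.031. The cause was not tested. Same-numbered arrays of the groups did not deviate together (correlations -0.04, -0.08, -0.03 and -0.09 across 19949 probes). Differently numbered arrays ranged from -0.15 to 0.20. The labels do not say what the numbers stand for, and with 4 arrays a group these values cannot decide whether samples were paired. With the replicate number as a block 0 members passed, 6 were at an unadjusted p under 0.05, and the medians were -0.056 and -0.058. With 4 arrays a group the median SE of a member probe was 0.073, larger than the median difference of -0.057, so most single differences lie below what single probes can show.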
